A study of Mus musculus with 6 samples.

Results

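In mouse mammary epithelial cells, 3124 accessible regions were absent from the peak list made after 6 h of the SWI/SNF inhibitor BRM014. They were present again in the list made after 30 h, and under vehicle their fold enrichment was at least 13. They were chosen from the lists themselves: entries that overlap were merged within each list, DMSO regions with a fold enrichment of at least 13 at their summit were called strong, and those kept overlapped no 6 h region and at least 1 region of the 30 h list by 1 bp. They made up 14.7% (14.2 to 15.2%) of the 21255 strong DMSO regions, among 42310 DMSO regions in all. The limit of 13 lay just below the median fold enrichment of the DMSO list, 13.0475. Of all DMSO regions 43.6% were missing at 6 h, and 19.9% at 6 h only. With the 3 lists cut to equal length, the share of strong regions missing at 6 h only was 7.26%. The choice used the DMSO fold enrichment and the calls at both times, so these values are a description and nothing was tested on them.

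The assay was ATAC-seq: the transposase Tn5 cuts open DNA and tags it for sequencing. NMuMG is an established epithelial line from normal mouse mammary gland, here of genotype WT and grown with serum and insulin. The groups were BRM014 for 6 h, BRM014 for 30 h and the vehicle DMSO, each with 2 biological replicates, and the authors made 1 list per group from both replicates together. No spread between replicates can therefore be given, and all intervals below are 95% intervals that cover counting error only. The DMSO time, 30 h, is given by the description of its list, so the 6 h list had no vehicle of its own time. The library protocol also speaks of TGFβ, which no treatment label carries. The lists held 25922 regions at 6 h, 38422 at 30 h and 42310 for DMSO. Positions are in the build mm9, numbered from 1, and no genome or annotation of that build was used here, so no sequence is shown, regions are named by position and the cell type was not checked against marker genes.

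SWI/SNF complexes use the energy of ATP to slide or evict nucleosomes, and their catalytic subunit is either BRG1 (Smarca4) or BRM (Smarca2). BRM014 inhibits the ATPase activity of both. The complexes are known for keeping enhancers accessible to transcription factors, and many such sites need continued remodelling to stay open. A region missing from a list was not called there, which does not mean that it was closed.

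The lists differ in depth, so each strong DMSO region was given a pileup expected at 6 h and at 30 h. The pileup is the number of reads stacked at the highest summit of a region, recovered from the deposited fold enrichment and p-value, and the expected pileup is the DMSO pileup times the relative depth of the other list. Relative depth was 63.0% of DMSO at 6 h and 80.7% at 30 h, taken from the lowest background of each list. In strong regions called at both times the pileup found had a median of 0.812 of that expected at 6 h and 0.974 at 30 h. The 3124 regions missing at 6 h only had a median expected 6 h pileup of 68.7 (67.4 to 69.9), with a range of 35.3 to 353, whose lower end is set by the limit on DMSO fold enrichment. All 3124 lay above the 5th percentile of pileups in the 6 h list, 31. The median of that list, 85, was reached by 1110 of them or 35.5% (33.9 to 37.2%). That share was 74.4% where strength was taken by -log10 q, and 23.1% with a depth measure chosen after seeing the data, which set the median ratio of strong regions called at both times to 1. In the DMSO list their median pileup was 109, against 86 for the 2613 strong regions missing at both times and 245 for the 15131 called at both times. Over all DMSO regions it was 129.

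The stronger a region was expected to be, the more rarely it was missing at 6 h. Of all strong DMSO regions 27.0% were missing at 6 h. At an expected pileup of 32 to 45.3, 69.5% were missing (67.4 to 71.5%), and 574 of these 1941 regions were called at 30 h. The same bin of 30 h regions, whose pileup was set to the 6 h depth in the same way, had 73.5% missing at 6 h (72.4 to 74.7%). These 30 h regions had no limit on fold enrichment, unlike the strong DMSO regions, whose expected pileups began at 35.3. The sets compared are therefore not matched, in this bin or in those that follow. At 90.5 to 128 the shares were 23.4% of strong DMSO regions (22.0 to 24.9%) and 15.6% of 30 h regions (14.6 to 16.6%). At 128 to 181 they were 10.8% (9.83 to 11.9%) and 4.45% (3.88 to 5.10%), and at 181 to 256 they were 4.44% (3.78 to 5.22%) and 0.997% (0.721 to 1.38%). At 256 and more, 19 regions were missing at 6 h only and 4 at both times among 3134, while none of 3121 regions of the 30 h list was missing at 6 h, which allows a share of up to 0.0961% by the 3 counts that a count of 0 allows, with a Wilson upper limit of 0.123%. An expected pileup of at least 128, a DMSO pileup of 204 or more, was found in 437 regions missing at 6 h only. By their 30 h pileup set to 6 h depth, 25 regions of the class reached 128. The shares of 30 h regions, which are binned by 30 h pileup, are therefore no measure for these 437.

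**Figure D1:**
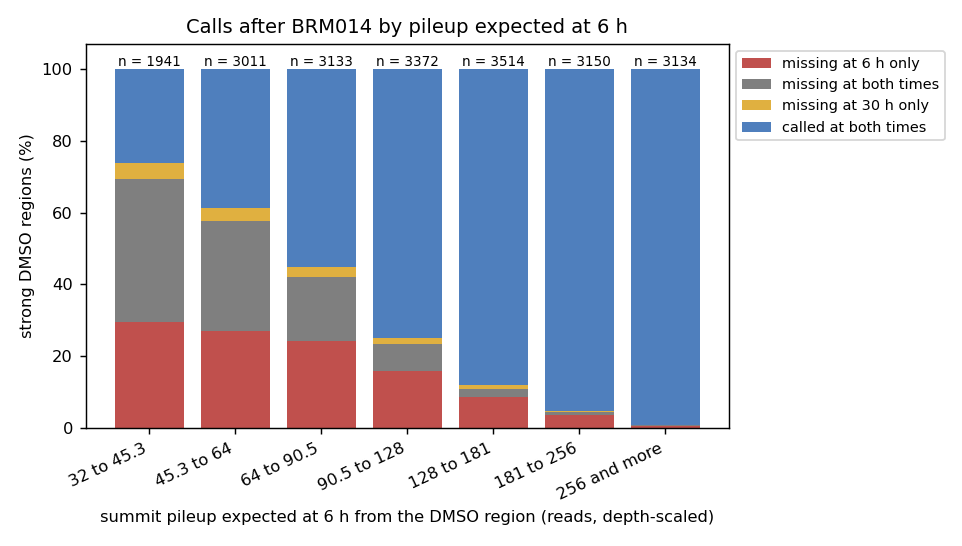
Share of strong DMSO regions (vertical axis, %) in each class of call after BRM014, by the summit pileup expected at 6 h (horizontal axis, reads at 6 h depth, 7 bins with their n above). The red part, missing at 6 h only, takes 29.6% of the weakest bin and 0.606% of the strongest, and the blue part, called at both times, grows with the expected pileup.

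Among strong regions missing at 6 h, the share called at 30 h was higher for stronger regions. It was 54.5% over all 5737 of them (53.2 to 55.7%), 42.6% at an expected pileup of 32 to 45.3 and 79.5% at 128 to 181. Over lists of equal length it was 33.6%. At 30 h 14.1% of all strong DMSO regions were missing. The 30 h list was the deeper of the treated lists, and its depth and the time of treatment cannot be told apart in the calls.

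Most of the regions were called at 30 h with a pileup below that expected from DMSO. The 30 h regions over the 3124 had a median pileup of 58 (57 to 59), with quartiles of 45 and 77, against 109 in the DMSO list at its greater depth. Divided by the pileup expected at 30 h depth, this gave a median of 0.657 (0.643 to 0.670), against 0.974 (0.968 to 0.980) in strong regions called at both times. In 939 of the 3124, 30.1% (28.5 to 31.7%), the 30 h pileup was under 0.5 of that expected, and in 634, 20.3% (18.9 to 21.7%), it reached or passed it. Over all DMSO regions called at 30 h the shares were 9.98% and 47.9%, and over the strong ones 13.7% and 41.6%. These ratios have the DMSO pileup, which helped to choose the regions, below the line.

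Weak and strong regions of the class differed in this ratio. The bins and the ratio both use the DMSO pileup, which stands below the line in the ratio. A fall of the ratio from weak to strong bins is thus partly built in, also in regions called at both times. At an expected 6 h pileup of 32 to 45.3 its median was 1.02 (0.975 to 1.05) in regions missing at 6 h only and 1.31 (1.28 to 1.36) in those called at both times. Both classes had to be called at 30 h, so regions of this bin not called there are in neither. The 30 h pileup of those regions is not known. At 64 to 90.5 the medians were 0.607 (0.582 to 0.631) and 1.03 (1.02 to 1.05). At 128 to 181 they were 0.382 (0.355 to 0.411) and 0.955 (0.944 to 0.969), and in the strongest bin 0.244 (0.177 to 0.326, n = 19) and 0.933 (0.923 to 0.944, n = 3106). Pileup at 30 h itself had a median of 52 (50 to 53) in the weakest bin of the class and 89 (72 to 119) in the strongest, a narrower span than the 68 to 389 of strong regions called at both times. Of the 437 regions with an expected 6 h pileup of at least 128, 333 were under 0.5 of the pileup expected at 30 h, 76.2% (72.0 to 80.0%), with a median of 0.353 (0.335 to 0.373). Among the 9201 regions of the same strength called at both times 13.01% (12.3 to 13.7%) were under 0.5, with a median of 0.943.

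**Figure D2:**
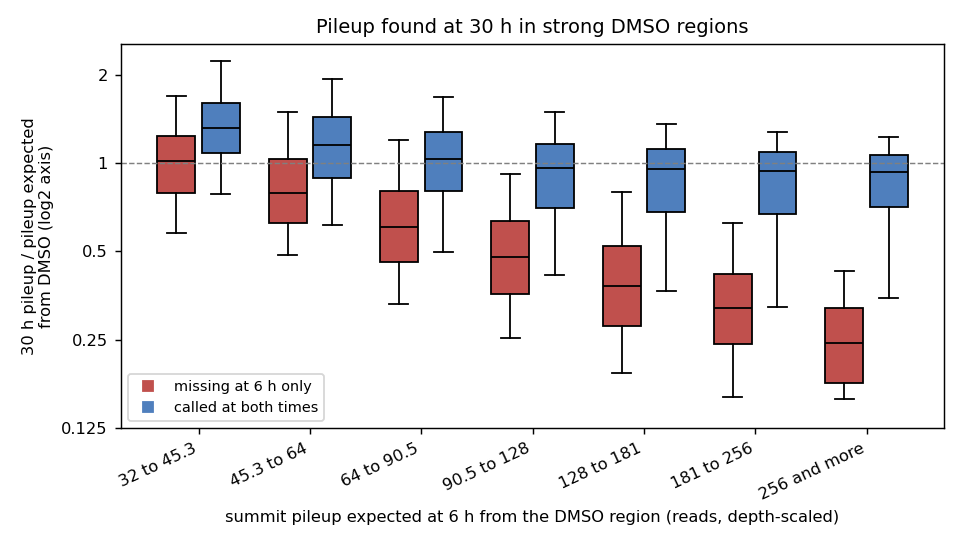
Pileup found at 30 h divided by that expected from DMSO (vertical axis, log2 scale) in strong DMSO regions missing at 6 h only (red) and called at both times (blue), by the summit pileup expected at 6 h (horizontal axis, reads). Boxes span the quartiles with the median as a line, whiskers run from the 5th to the 95th percentile over regions, and the red medians go down from 1.02 to 0.244 while the blue ones stay between 0.933 and 1.31. Both axes use the DMSO pileup, so a fall from left to right is partly built in.

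The 10 regions of the class with the highest DMSO fold enrichment, 29.0 to 31.7, lay on 8 chromosomes. The first, at chr1:184913102-184913647, had a fold enrichment of 19.9 at 30 h and 31.7 in DMSO, with 82 reads at 30 h where 247 were expected, a ratio of 0.332 (0.257 to 0.425). It had a single summit and lay 22482 bp from any 6 h region. The second, at chr3:155372708-155373504, had 51 reads at 30 h where 175 were expected, and its 30 h region covered only 39.5% of its length. At chr10:7109112-7109568 lay the only one of the 10 whose interval included 1, with 141 reads at 30 h where 164 were expected, a ratio of 0.860 (0.689 to 1.07). Its nearest 6 h region was 199710 bp away.

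The others of these 10 were below the pileup expected, each with an upper limit under 1. At chr19:11505609-11506386 the 30 h fold enrichment, 27.9, stood above 99.4% of the 30 h list, yet its 113 reads were 0.518 of the 218 expected (0.412 to 0.648). Ratios close to that were found at chr12:41185345-41185954, 0.515, at chr1:188353920-188354682, 0.509, and at chr16:78473590-78474192, 0.504. Lower ones were found at chr13:34596766-34597260, 0.308, chr18:84009985-84010780, 0.333, and chr10:10168472-10169674, 0.298. In the last of these, a region of 3 summits and 1203 bp, the 30 h region covered 41.1%. Fold enrichment, a ratio to the local background, and pileup thus ordered the same regions differently.

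Ranked instead by the pileup expected at 6 h, 295 to 353 reads, the first 10 were all under 0.5 of the pileup expected at 30 h. Both expected pileups are the DMSO pileup times a constant, so this ranking by itself favours low ratios. The highest lay at chr1:93386734-93387434, with 80 reads at 30 h where 452 were expected, a ratio of 0.177 (0.138 to 0.224). Its 30 h fold enrichment, 6.19, stood above only 7.23% of the 30 h list, and a 6 h region lay 3515 bp away. The second lay on the same chromosome at chr1:93474209-93475059, with 71 reads where 444 were expected, 0.160 (0.123 to 0.205). At chr13:108466239-108467441 was the one with the highest ratio of these 10, 186 reads where 434 were expected, 0.428 (0.361 to 0.507). The lowest, 0.157 (0.119 to 0.204), was at chr15:85765921-85766565, with 64 reads where 408 were expected. The remaining 6 lay between 0.164 and 0.326: at chr11:21851589-21852301, chr15:12235995-12237408, chr16:76080078-76080809, chr19:36762356-36763307, chr8:96877805-96878750 and chr8:129707829-129708677. These 10 carried the strongest pileups of the class in DMSO and a call at 30 h. The highest upper limit of their ratios was that of the chromosome 13 region, 0.507.

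**Figure D3:**
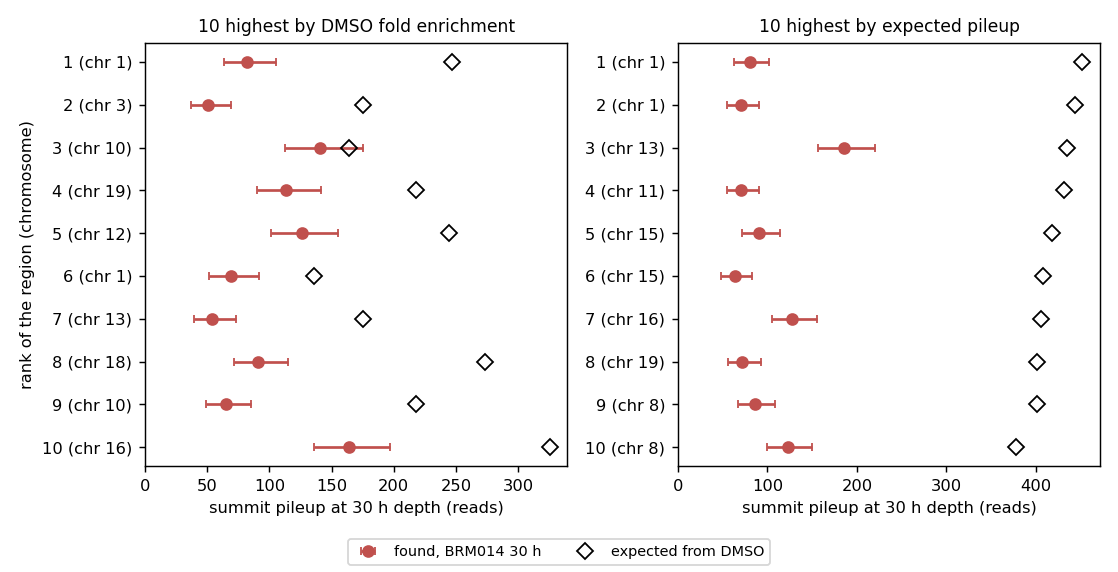
Summit pileup at 30 h (red points, with 95% counting intervals) and the pileup expected at 30 h from DMSO (open diamonds), in reads on the horizontal axis, for the 10 regions missing at 6 h only with the highest DMSO fold enrichment (left) and with the highest expected pileup (right). The red points lie left of the diamonds in all 20 rows, and in 1, rank 3 on the left, the interval reaches the diamond. The ranking on the right is by the DMSO pileup that also sets the diamonds.

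A few regions combined a clear expectation at 6 h with a 30 h pileup close to that of DMSO. Of the 437 with an expected 6 h pileup of at least 128, 15 reached 0.8 of the pileup expected at 30 h, 3.43% (2.09 to 5.59%), and 4 reached 1. Among strong regions of the same strength called at both times 66.2% reached 0.8 (65.3 to 67.2%). The 4 were picked after their values were seen. The first was at chr5:64899644-64900386, with 312 reads at 30 h where 223 were expected, a ratio of 1.40 (1.19 to 1.65), and fold enrichments of 17.0 at 30 h and 13.3 in DMSO. It was the highest 30 h pileup in the class, and its lower limit lay above 1. On chromosome 17, chr17:79397418-79398217 had 218 reads where 195 were expected, and chr17:63036670-63037317 had 251 where 231 were expected. Both intervals included 1. The last was at chr10:25153336-25153949, with 181 reads where 170 were expected, 225 bp from another DMSO region. In the order given, the nearest 6 h region lay 2822, 2360, 3106 and 5759 bp away from these 4.

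The 30 h list can also serve as the starting point. Set to 6 h depth, the 30 h pileups of the class would have been under 32 reads in 577 regions, 32 to 64 in 1905, 64 to 128 in 617 and at least 128 in 25. In the 30 h list as a whole 88.3% of regions expected under 32 reads were missing at 6 h, 62.5% of those at 32 to 64, 24.2% at 64 to 128 and 2.08% at 128 or more. These shares include the 30 h regions of the class itself, which were missing at 6 h by the rule. Most regions of the class lay under 64 reads, where the shares were highest. The reason for their missing calls was not tested. The 25 had a median ratio to the pileup expected from DMSO of 0.934, from 0.428 to 2.06, with 166 to 312 reads at 30 h. They belonged to 232 regions of the 30 h list that were expected at 128 or more and missing at 6 h. Of these 232, 28 overlapped a strong DMSO region, 173 a DMSO region under the limit of 13, and 31 no DMSO region.

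By 30 h fold enrichment the 5 highest of the class ran from 26.9 to 29.9. The first, at chr1:5060266-5060847, had 151 reads at 30 h where 67.0 were expected, a ratio of 2.25 (1.71 to 2.98). On chromosome 3, chr3:159387392-159388049, with a ratio of 1.38 (1.05 to 1.81), and chr3:41032463-41032872, with 1.56 (1.22 to 2.00), were also above the pileup expected. The other 2, on chromosomes 19 and 10, are among the 10 highest in DMSO and lay at 0.518 and 0.860. Over the whole class the 30 h fold enrichment had a median of 12.9 (12.7 to 12.997), close to the median of the 30 h list, 12.6, against 17.4 (17.4 to 17.5) for strong regions called at both times. The highest deposited score, 1000, was held at 30 h by 44.1% of the class (42.3 to 45.8%) and by 91.8% of the regions called at both times (91.4 to 92.3%). In the DMSO list these shares were 87.7% and 97.5%.

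The summits called at 30 h lay close to those of DMSO, while the regions called were mostly shorter. The nearest 30 h summit lay a median of 13 bp from the DMSO summit (12 to 13 bp), against 9 bp (8 to 9 bp) in strong regions called at both times, and within 50 bp in 94.5% and 97.2%. A shift of more than 150 bp was seen in 18 of the 3124. The 30 h regions had a median width of 534 bp (527 to 543 bp), against 669.5 bp (661 to 680 bp) for the DMSO regions they overlapped, and were the narrower of the pair in 81.0% (79.6 to 82.4%). In strong regions called at both times this held for 69.6% (68.9 to 70.3%), with median widths of 767 bp at 30 h and 834 bp in DMSO. The 30 h regions covered a median of 83.0% of the DMSO region (82.2 to 83.8%) in the class and 93.5% (93.2 to 93.7%) in regions called at both times. At an expected 6 h pileup of 128 to 181 the medians were 80.4% (78.2 to 82.8%) and 93.2% (92.7 to 93.5%). The width of a called region depends on pileup and depth, and their part in the shorter 30 h regions was not tested.

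**Figure D4:**
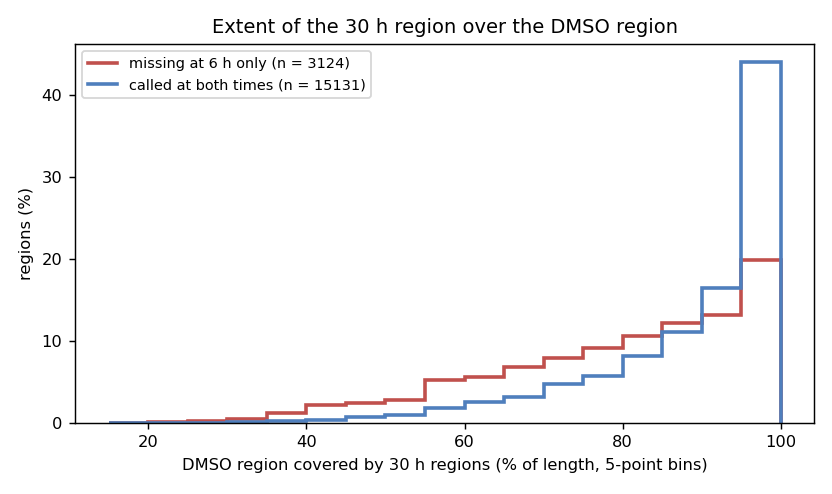
Share of regions (vertical axis, %) by how much of the length of the strong DMSO region its 30 h regions covered (horizontal axis, % of length, bins of 5 points), for regions missing at 6 h only (red, n = 3124) and called at both times (blue, n = 15131). The red curve is lower in the 2 bins of fullest cover and higher in most bins below them, with medians of 83.0% and 93.5%.

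In the DMSO list the class held simpler regions than those called at both times. A single summit was recorded in 56.2% (54.5 to 57.9%), against 33.3% (32.6 to 34.1%), and at least 3 summits in 9.41% (8.44 to 10.5%), against 28.7% (28.0 to 29.5%). Their median DMSO width was 669.5 bp, against 834 bp. The strong regions missing at both times were close to the class in this, with a single summit in 59.4% (57.5 to 61.2%) and a median width of 659 bp. Part of the difference in width went with pileup. At an expected 6 h pileup of 45.3 to 64 the median DMSO width was 626 bp in the class and 625.5 bp in regions called at both times, and at 128 to 181 it was 776.5 bp (743 to 803 bp) and 862.5 bp (847 to 872 bp).

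Few of the regions lay next to a 6 h call. The nearest 6 h region lay a median of 20388 bp away (19346 to 21623 bp), against 26624 bp (25086 to 28089 bp) for strong regions missing at both times. For the class it was 12071.5 bp with strength taken by -log10 q and 32197.5 bp among entries with a score of 1000. Within 500 bp of a 6 h region lay 21 of the 3124, and within 1 kb 36. Overlap with a 6 h region was excluded by the rule, and close neighbours were few in the DMSO list too. Within 1 kb of another DMSO region lay 3.78% of the class (3.16 to 4.50%). This was 2.68% for strong regions missing at both times and 6.62% for those called at both times. More than 10 kb separated 73.7% from any 6 h region (72.1 to 75.2%), and more than 100 kb 11.01% (9.96 to 12.2%). The region farthest from any 6 h call was at chrX:114883653-114884271, with 2.34 Mb to the nearest and 61 reads at 30 h where 62.2 were expected, a ratio of 0.981 (0.690 to 1.39). It was followed by chr10:48152822-48153585 at 2.16 Mb, with a ratio of 0.416 (0.285 to 0.598), and chr7:61747754-61748412 at 1.30 Mb, with 0.677. The next were at chr1:125476561-125477142 at 1.22 Mb, with 0.821, and chr2:55966934-55967232 at 0.9996 Mb, with 1.03.

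Neighbours were missing at 6 h slightly more often around these regions than around regions called at both times. The nearest other DMSO region lay a median of 11964.5 bp away (11405 to 12513 bp), against 11188 bp (10894 to 11393 bp). It was itself missing at 6 h in 49.2% of the class (47.4 to 51.0%), against 44.2% (43.4 to 45.0%) around regions called at both times and 43.9% over all DMSO regions. Around the other strong regions with a missing call the share was not lower than in the class, with 53.8% (51.9 to 55.7%) for those missing at both times and 52.2% (47.2 to 57.1%) for those missing at 30 h only. Over lists of equal length it was 27.1%, against 22.1%. For neighbours within 5 kb the shares were 63.1% (58.6 to 67.4%) and 56.0% (54.3 to 57.7%). Split by the neighbour's own expected 6 h pileup, they were 73.2% (70.3 to 75.9%) and 67.9% (66.5 to 69.2%) at 32 to 64 reads, 43.2% (39.9 to 46.6%) and 39.0% (37.6 to 40.5%) at 64 to 128, and 9.01% (7.31 to 11.1%) and 8.31% (7.53 to 9.15%) at 128 or more. In the last 2 of these bins the intervals overlap. Neighbouring regions can share their neighbour, so these intervals are too narrow.

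On the chromosomes the class was spread widely. Its share of strong DMSO regions was lowest on chromosome 11, 150 of 1365 or 10.99% (9.44 to 12.8%), with 11.6% on chromosome 7 (9.95 to 13.4%) and 12.3% on chromosome 19 (10.1 to 14.8%) next. Chromosome 12 had the highest share, 133 of 760 or 17.5% (14.96 to 20.4%), followed by chromosome 10, 16.3% (14.2 to 18.6%). Missing at 6 h, whatever the 30 h call, were 288 of 1365 on chromosome 11 and 283 of 1314 on chromosome 7. On chromosome 12 it was 241 of 760, and over all chromosomes 27.0%. Of those missing, 52.1%, 53.7% and 55.2% were called at 30 h, close to the 54.5% over all. The share missing at 6 h thus differed more between these chromosomes than the share of those called at 30 h. Expected pileups were not compared by chromosome, and the reason was not tested. The median 30 h ratio by chromosome ran from 0.599 on chromosome 13 to 0.706 on chromosome 17. Only 3 pairs of the class lay within 2 kb of each other. On the X chromosome, chrX:153381087-153381542 and chrX:153381623-153382098, 80 bp apart, were joined under a single 30 h region, at ratios of 0.370 and 0.261. The pair chr13:88068258-88068749 and chr13:88069011-88069469 had 0.696 and 0.772, and the pair chr16:45871183-45871832 and chr16:45873471-45873978 had 0.583 and 1.01.

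**Figure D5:**
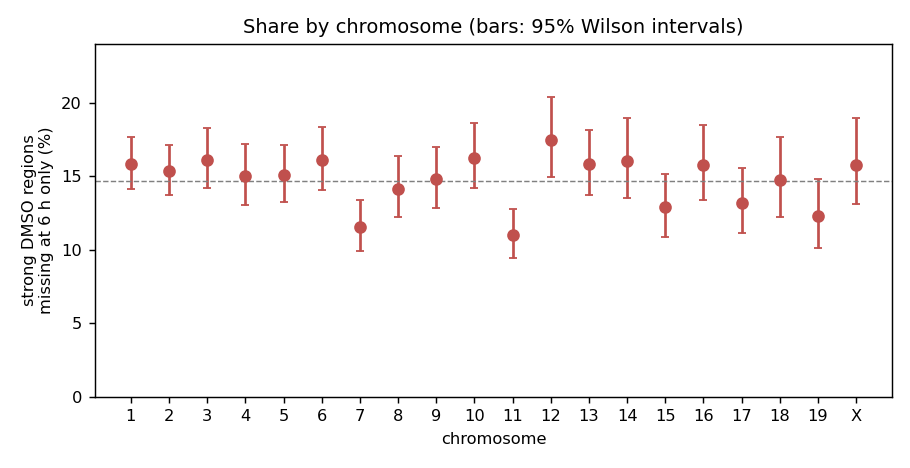
Share of strong DMSO regions missing at 6 h only (vertical axis, %) on each chromosome, with 95% Wilson intervals, and the share over all chromosomes, 14.7%, as a dashed line. Chromosomes 7 and 11 have intervals wholly below the line and chromosome 12 one wholly above it. The intervals are not adjusted for the number of chromosomes.

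Windows of 1 Mb held at most 11 regions of the class, and 83 of the 1482 windows with at least 1 held 5 or more. The windows named here were picked for holding most, so their shares are high by choice and the intervals do not allow for it. The most lay at chr2:117000001-118000000, 11 of 23 strong DMSO regions (47.8%, 29.2 to 67.0%), with 5 more missing at both times and 7 called at both. Their 30 h ratios ran from 0.215 at chr2:117300773-117301614, with 43 reads at 30 h and 248 in DMSO, to 1.40 at chr2:117056831-117057311, with 68 reads at 30 h and 60 in DMSO. The highest DMSO pileup of the 11 was at chr2:117569440-117570213, which had 95 reads at 30 h and 326 in DMSO, a ratio of 0.361. At chr15:54000001-55000000 it was 9 of 22 (40.9%, 23.3 to 61.3%), with a median ratio of 0.330. There chr15:54184927-54185818 had 56 reads at 30 h and 340 in DMSO, a ratio of 0.204, and chr15:54785164-54785950 had 94 at 30 h and 361 in DMSO, 0.323. In the same window chr15:54608012-54608674, with 128 reads at 30 h and 113 in DMSO, stood at 1.40, so neighbours in a window did not share 1 level. The next windows held 8 each: chr17:87000001-88000000, of 20 strong regions, chr12:8000001-9000000, of 23, and chr1:172000001-173000000, of 24, as well as chr3:121000001-122000000, of 31, which tied with them.

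At the limit of 13 the class had no natural edge. The 5 regions just inside it had DMSO fold enrichments from 13 to 13.007, with 30 h ratios from 0.650 to 1.24: at chr5:117742569-117742982, chr1:121989991-121990435, chr10:126761567-126761893, chr8:86911995-86913391 and chr7:117258220-117258748. The 5 missing at 6 h only just outside it had fold enrichments from 12.9851 to 12.9975 and ratios from 0.189 to 2.09. These lay at chr5:40106991-40107960, chr18:38760492-38761462, chr8:118602586-118603324, chr7:97348770-97349708 and chr1:54883075-54883971. The first of them had a DMSO pileup of 306, above the 95th percentile of the class, 280.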

How the data were processed

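Peaks were called with MACS2 2.1.2 on the build mm9, per the submitters' processing notes, and, per the labels, 1 list stands for the 2 replicates of a group. Aligner, read filters, transposase shift and caller options are not given in the sources used here, although each could move depths and calls. Each entry has the deposited score (540 to 1000), the authors' fold enrichment as a ratio at the summit, the deposited -log10 p and -log10 q, and a summit offset, with no scaling between lists. The score did not always rise with -log10 q. At 30 h chr2:55966934-55967232 had a score of 793 at 49.1, and chr10:48152822-48153585 had 962 at 31.6. What the score measures was not examined, nor whether agreement between replicates entered the calls.

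Overlapping entries were merged, and each merged region was 1 deposited interval with 1 or more summits. From each entry a pileup in whole reads and its background were solved from fold enrichment and -log10 p, assuming the caller's pseudocount of 1 and a Poisson tail; 100% of entries matched the deposited -log10 p within 0.001. Expected pileups rest on the lowest background as the measure of depth. Read totals were not analysed here. Shares have Wilson intervals, medians order-statistic intervals and ratios of 2 pileups exact binomial intervals, all at 95%. They take reads and regions as independent, which neither need be. With 1 list per group no test between groups was made.

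The class, its limit and the rules for naming regions were chosen with earlier results of these data known. Named were the 10 highest by DMSO fold enrichment and by expected 6 h pileup, the 5 highest by 30 h fold enrichment, the 5 farthest from a 6 h region, 5 on each side of the limit, the 5 windows of 1 Mb with most regions of the class and pairs within 2 kb. The ratios of pileups and the neighbours' calls are additions made with the data in view. The merging, class and pileup steps were tested on simulated lists, made from the DMSO list at fixed depths without counting noise. Peak calling was not tested in this way. Python 3.11.15, pandas 2.3.3, scipy 1.17.1 and statsmodels 0.14.6 were used.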

Additional observations from a re-analysis of the deposited data

How the results depend on the processing

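Values are given in this order, where they left their interval: share of strong DMSO regions missing at 6 h only, share of those missing at 6 h that were called at 30 h, median 30 h fold enrichment, median cover by 30 h regions, median distance to a 6 h region, share expected at or above the median 6 h pileup, share within 1 kb of another DMSO region, median 30 h ratio and share with a nearest region missing at 6 h. With an overlap of at least 50% they were 15.5%, 52.7%, 13.4, 83.9%, 16543 bp, 39.3% and, for the ratio, 0.683. With a fold enrichment of at least 15 they were 12.9%, 56.8%, 13.6, 82.1%, 21920 bp, 43.0%, 3.10% and 0.600, and with at least 11 they were 16.4%, 52.2%, 12.4, 84.4%, 19117 bp, 30.3%, 4.87% and 0.728. With the same number of strong regions taken by -log10 q they were 11.3%, 66.7%, 11.5, 81.9%, 12071.5 bp, 74.4%, 14.3%, 0.523 and 47.2%. With entries at a score of 1000 only they were 21.2%, 46.4%, 15.8, 88.5%, 32197.5 bp, 25.2%, 3.13%, 0.807 and 55.8%, with a summit distance of 10 bp. With lists of equal length, cut by -log10 q, they were 7.26%, 33.6%, 15.1, 85.5%, 17902 bp, 50.7%, 1.69%, 0.718 and 27.1%. Equal lists and the score remove entries by construction, and for the other settings the cause was not tested. With depth set so that strong regions called at both times had a median ratio of 1, chosen after seeing the data, 23.1% were expected at or above the median 6 h pileup and the ratio was 0.674.

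Of the values under these settings, 53 left the interval of the reported value and 41 stayed in it. Counting regions within 500 bp as shared, asking that a shared region hold the DMSO summit, merging touching regions and the median background moved none. Merging touching regions left the same 3124 regions and the same values, so its entries among the 41 say nothing about stability. The median ratio of the class stayed below that of strong regions called at both times under each of these settings, at 0.807 and 1.01 in the closest, score 1000. Of the 3124 regions of the class 39.5% were found again with a score of 1000, 43.6% with equal lists and 54.6% with -log10 q. No paired analysis was possible because a list pools its 2 samples, and pooled calls allow no sample to be left out. Sequence content, planned with a window of 500 bp as its alternative, was not run, since no mm9 genome was used. The 6 h list was the shallowest, and weak regions were often missing there: 57.6% of strong DMSO regions at an expected pileup of 45.3 to 64, and 69.5% at 32 to 45.3.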
